A study of Mus musculus with 16 samples.

Results

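The 40 listed autosomal genes of the Forkhead (Fox) transcription factor family were examined in haploid mouse spermatids, out of 20807 autosomal protein-coding genes of the GENCODE vM21 annotation (mm10). They were listed by gene family and not by a measured value, although earlier results of these data were known when the list was made. Of the 40 genes, 11 are expressed in many tissues and 29 are restricted to particular lineages, by general knowledge of the family. The libraries come from AutoCUT&RUN, an automated chromatin profiling assay in which an antibody tethers micrococcal nuclease to chromatin and the released DNA fragments are sequenced. Live haploid spermatids were sorted by DNA content from the testes of 2-month-old, non-mated brothers of a C57BL/6J backcross, either hemizygous KO for all 3 X-linked H2A.B genes (ΔH2A.B/Y) or WT (+/Y). H2A.B is a short histone H2A variant of the testis, and the KO animals come from a single CRISPR/Cas9-edited strain, so the KO group stands for 1 set of mutations. Each of 2 sibling pairs gave 1 KO and 1 WT library for each of 4 antibodies, against H3K4me3, H3K27me3, H3K9me3, and a nonspecific IgG control, which makes 16 libraries in 8 groups of 2.

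Forkhead proteins bind DNA through a winged-helix domain. Many of them, such as Foxa2 in endoderm, Foxd3 in neural crest, and Foxl2 in the ovary, set cell identity in the embryo and are silent elsewhere, whereas Foxo, Foxk, and some Foxp and Foxn members act in most cells. H3K4me3 is placed at active or poised CpG-rich promoters, and H3K27me3 is placed by Polycomb repressive complex 2, classically over developmental regulators. H3K9me3 marks heterochromatin. In male germ cells many developmental genes keep both H3K4me3 and H3K27me3.

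Each gene was measured in a window of 2001 bp centered on the start of its gene record, as distinct fragments per 1000000 distinct fragments of the library (CPM). The stretches just before 5 of these starts show the range of sequence on which the marks were measured. They lie in GRCm38.p6, the assembly of mm10, and were taken from RefSeq, up to 250 bases before the RefSeq start and without bases of an annotated exon. Foxk2 (chr11:121259737-121259986, + strand) is a broadly expressed gene with H3K4me3 above H3K27me3, Foxa3 (chr7:19023540-19023789, - strand) is a restricted gene with both marks, Foxd3 (chr4:99656049-99656298, + strand) is a restricted gene with H3K27me3, Foxp4 (chr17:47924646-47924882, - strand) is a broadly expressed gene with H3K27me3, and Foxn1 (chr11:78386609-78386858, - strand) has few fragments of either at its start. They are written 5′ to 3′ in the direction of the gene, with each CpG dinucleotide in capitals.
Foxk2: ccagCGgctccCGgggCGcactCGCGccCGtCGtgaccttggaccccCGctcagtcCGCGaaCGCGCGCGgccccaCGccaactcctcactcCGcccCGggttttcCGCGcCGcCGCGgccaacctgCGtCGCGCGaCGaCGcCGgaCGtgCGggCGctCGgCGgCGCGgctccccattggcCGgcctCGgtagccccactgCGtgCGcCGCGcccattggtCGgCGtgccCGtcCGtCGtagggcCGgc
Foxa3: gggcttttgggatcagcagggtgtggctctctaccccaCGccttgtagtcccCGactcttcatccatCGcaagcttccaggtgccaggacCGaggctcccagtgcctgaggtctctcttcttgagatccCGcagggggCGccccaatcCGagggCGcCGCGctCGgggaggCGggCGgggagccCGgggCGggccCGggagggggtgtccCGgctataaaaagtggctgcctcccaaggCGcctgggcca
Foxd3: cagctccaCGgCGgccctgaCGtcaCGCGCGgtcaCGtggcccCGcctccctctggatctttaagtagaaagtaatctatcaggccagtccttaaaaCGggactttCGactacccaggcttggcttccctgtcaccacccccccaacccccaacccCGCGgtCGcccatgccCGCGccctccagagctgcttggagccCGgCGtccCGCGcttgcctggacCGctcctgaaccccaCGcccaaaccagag
Foxp4: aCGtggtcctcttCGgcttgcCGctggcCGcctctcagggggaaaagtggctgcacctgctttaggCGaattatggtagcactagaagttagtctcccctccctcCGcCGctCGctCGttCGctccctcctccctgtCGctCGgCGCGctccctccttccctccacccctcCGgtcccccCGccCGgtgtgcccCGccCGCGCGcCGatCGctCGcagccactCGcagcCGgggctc
Foxn1: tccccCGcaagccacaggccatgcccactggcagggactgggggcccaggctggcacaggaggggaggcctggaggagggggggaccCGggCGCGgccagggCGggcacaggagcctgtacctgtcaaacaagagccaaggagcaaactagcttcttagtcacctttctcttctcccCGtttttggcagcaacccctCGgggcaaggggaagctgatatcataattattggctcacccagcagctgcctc
These stretches hold 48 CpGs in Foxk2, 18 in Foxa3, 21 in Foxd3, 26 in Foxp4, and 7 in Foxn1. Foxd3 and Foxp4, which carry H3K27me3, hold CpG numbers between those of Foxk2 and Foxn1.

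The libraries held 784360 to 3394830 distinct fragments for H3K4me3, 200457 to 3806026 for H3K27me3, 5009169 to 6746382 for H3K9me3, and 159611 to 270598 for IgG. The IgG libraries are so shallow that the 40 member windows held 25 IgG fragments in all 4 of them, and 24 of the 40 windows held 0. Distinct fragments overlapping the 3 H2A.B genes numbered 0 to 7 in a KO library and 0 to 10 in a WT library. These genes are similar to each other and carry deletions of part of the gene, and so few fragments do not check the genotypes. Of 10 spermatid marker genes, 9 had H3K4me3 above IgG (all but Prm1, at 1.54 CPM), where 46.3% of all tested windows did, against 1 of 6 spermatogonial markers (Id4), 0 of 5 Sertoli cell markers, 0 of 2 tested Leydig cell markers, and 0 of 3 tested macrophage markers. H3K27me3 was above IgG at 0 of 10 spermatid, 5 of 6 spermatogonial, 4 of 5 Sertoli cell, 1 of 2 tested Leydig cell, and 1 of 3 tested macrophage markers, and at 24.9% of all tested windows. Over the whole list, the summed H3K4me3 level was 1.27 to 4.45 CPM for the 5 Sertoli cell markers and 135 to 216 CPM for the 10 spermatid markers. In sorted bulk cells, fewer cells with a mark and less of the mark per cell cannot be told apart, and a window with both marks may carry them in the same cells or in different ones.

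Most Forkhead genes carried H3K27me3 and little H3K4me3 in spermatids, and a small set showed the opposite. In the direct contrast over all 16 libraries, 28 of 38 tested members had H3K27me3 above H3K4me3 (28.9% of all 17297 tested windows), and 8 had H3K4me3 above H3K27me3 (54.8% of all tested windows). The 28 were 24 restricted genes and 4 broadly expressed ones (Foxj2, Foxn3, Foxo3, and Foxp4). The 8 were 5 broadly expressed genes (Foxm1, Foxk1, Foxk2, Foxo1, and Foxn2) and 3 restricted ones (Foxj1, Foxh1, and Foxd4). Foxp1 and Foxa3 were called neither way, and Foxj3 and Foxn1 had too few fragments to be tested. Calls are at an adjusted p under 0.05 from limma-voom with Benjamini-Hochberg adjustment over all tested windows. The contrast compares a window's share of the fragments of each antibody, and not the amounts of the 2 marks on the chromatin. With median-of-ratios scaling, which moved the median of all windows from 2.49 to 1.10 (log2), 28 members were called for H3K27me3 and 5 for H3K4me3. With every library thinned to 159611 fragments the numbers were 22 and 4 of 30 tested. The shares of all tested windows above are those of the main fit only.

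**Figure D1:**
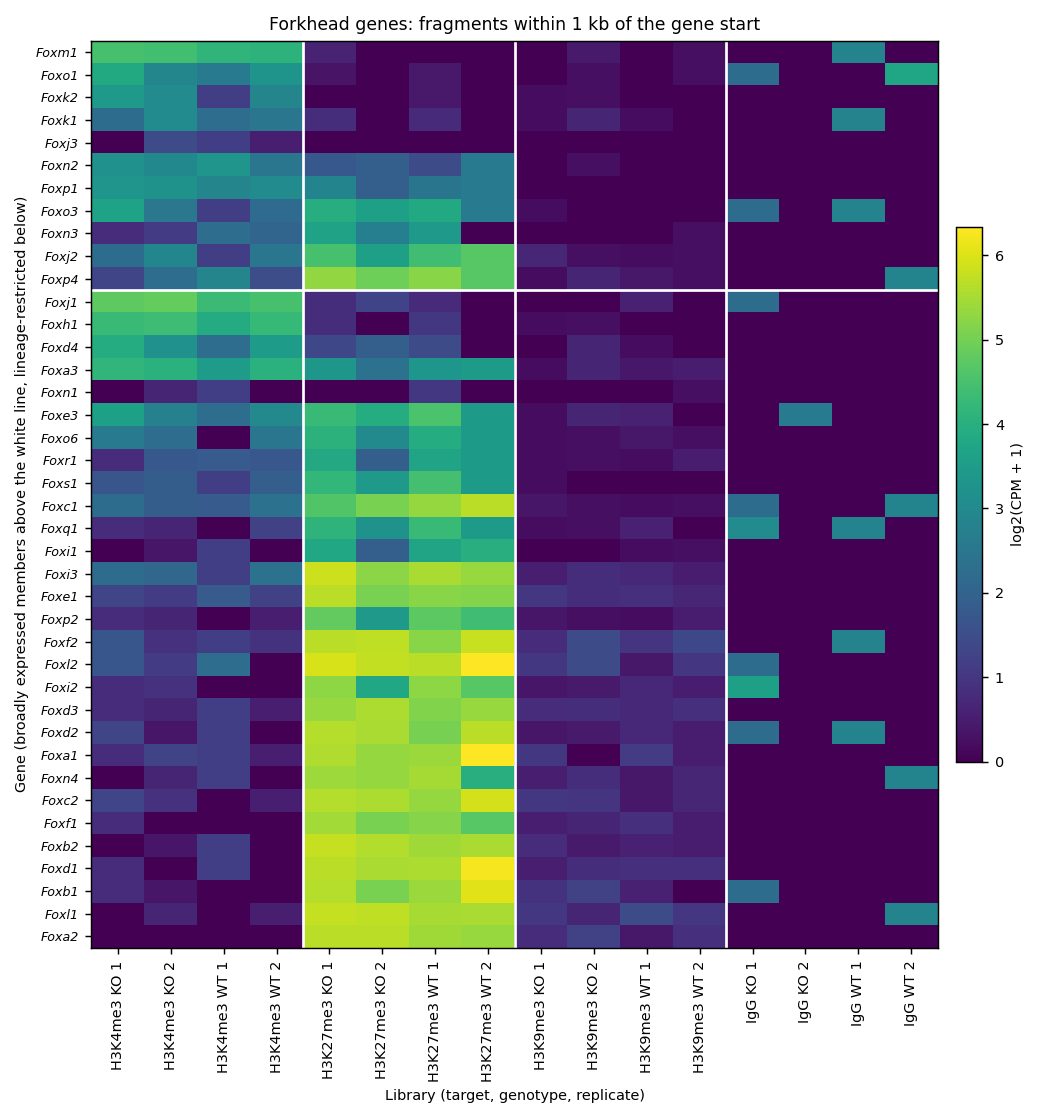
Levels within 1 kb of the start of the 40 Forkhead genes (rows) in the 16 libraries (columns), in color as log2(CPM + 1). H3K27me3 is high in most of the 29 restricted genes below the white line, H3K4me3 is highest in Foxj1 (23.5 CPM on average), Foxm1, and Foxh1, and IgG is 0 in most cells of the map.

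The 5 members with the highest H3K27me3 were all restricted genes. Foxl2, a regulator of ovarian granulosa cells, had 61.2 and 53.4 CPM in KO and 50.5 and 79.8 CPM in WT. Foxd1, a factor of kidney stroma, had 50.2 and 45.0 CPM in KO and 46.3 and 74.8 CPM in WT. Foxa1, a pioneer factor of endoderm, had 47.3 and 39.3 CPM in KO and 40.5 and 79.8 CPM in WT. KO and WT overlapped in all 3, and each WT replicate 2 value, the highest of its gene, comes from the library with 200457 fragments. Foxl1, a factor of gut mesenchyme, had 53.6 and 52.0 CPM in KO and 44.3 and 44.9 CPM in WT, without overlap. With 2 KO and 2 WT libraries, a separation in either direction has a probability of 0.333 where genotype has no effect. Foxc2, a factor of lymphatic vessels, had 48.9 and 46.4 CPM in KO and 39.1 and 59.9 CPM in WT, which overlap. H3K4me3 was between 0.26 and 1.81 CPM on average at these 5 genes, against a median of 3.08 CPM over all autosomal genes. Foxa2, a partner of Foxa1 in endoderm and node, had 49.9 and 50.6 CPM of H3K27me3 in KO and 42.5 and 39.9 CPM in WT, and 0 H3K4me3 fragments in any library. Set against a limit of 3 fragments over the 4 H3K4me3 libraries, its H3K27me3 was at least 120.5-fold higher in CPM pooled over the libraries.

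Among the other restricted genes called for H3K27me3 over H3K4me3, its mean ranged from 9.51 CPM at Foxr1 to 48.2 CPM at Foxf2. Foxb1, Foxb2, Foxc1, Foxd2, Foxd3, Foxe1, Foxf1, Foxf2, Foxi2, Foxi3, and Foxn4 all exceeded 24.7 CPM, the limit of the highest 10% of all genes. Foxi1, Foxo6, Foxq1, and Foxs1 lay between 10.7 and 14.6 CPM. In all, 17 of 29 restricted genes and 1 of 11 broadly expressed genes (Foxp4) were in that highest 10%. Over the 29 restricted genes the median was 34.8 CPM, against 0.351 CPM over all autosomal genes.

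Foxj1, the master regulator of motile cilia, had the highest H3K4me3 of the family although it is a restricted gene. Its level was 26.0 and 27.4 CPM in KO and 19.1 and 21.5 CPM in WT, and its H3K27me3 was 0 to 1.405 CPM in the 4 libraries. The log2 difference between the marks was 4.33 ± 0.54 (SE, adjusted p = 2.11e-10). Foxh1, a partner of Smad proteins in Nodal signaling, had 18.5 and 19.7 CPM of H3K4me3 in KO and 14.0 and 17.9 CPM in WT, against at most 1.04 CPM of H3K27me3, a log2 difference of 4.0 ± 0.54 (SE, adjusted p = 1.20e-09). For both genes the KO libraries lay above the WT libraries, without a call in the test of that difference given with the genotypes. Foxd4 had 14.1 and 8.25 CPM of H3K4me3 in KO and 3.82 and 10.1 CPM in WT, and 0 to 2.81 CPM of H3K27me3 (log2 difference 2.11 ± 0.53, SE, adjusted p = 0.000257). At Foxd4 the genotypes overlapped.

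Foxa3, the third Foxa gene, which acts in liver and gut and also in testis, carried both marks. Its H3K4me3 was 17.1 and 15.6 CPM in KO and 10.2 and 15.6 CPM in WT, and its H3K27me3 was 9.20 and 4.21 CPM in KO and 8.99 and 9.98 CPM in WT. The log2 difference of 0.82 did not pass the test (95% interval -0.10 to 1.73, adjusted p = 0.0927). With distinct fragments and limma-voom it was the only one of 38 tested members called above IgG for both marks. With an added constant in proportion to library depth 22 and 31 of the 38 were called for H3K4me3 and H3K27me3, so others then had both. Foxe3, a lens factor, had 11.1 and 5.89 CPM of H3K4me3 in KO and 3.82 and 6.88 CPM in WT, and 18.4 and 14.05 CPM of H3K27me3 in KO and 22.1 and 9.98 CPM in WT. Its H3K27me3 was called above IgG and its H3K4me3 was not.

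Among the broadly expressed genes, Foxm1, which drives the genes of the G2 and M phases, had the most H3K4me3, at 21.5 and 20.3 CPM in KO and 16.6 and 16.05 CPM in WT. Its H3K27me3 was 0.525 CPM in the KO library of replicate 1 and 0 in the other 3 libraries. Foxo1, a target of insulin signaling that maintains spermatogonial stem cells, had 13.4 and 6.48 CPM of H3K4me3 in KO and 5.10 and 8.71 CPM in WT, against at most 0.346 CPM of H3K27me3. IgG held 3.70 CPM at Foxo1 in KO replicate 1 and 12.5 CPM in WT replicate 2, and its H3K4me3 was not called above IgG. Foxk1 and Foxk2, paired repressors of autophagy genes, had 4.87 ± 1.71 and 6.18 ± 3.54 CPM of H3K4me3 (SD, n = 4) and at most 0.788 CPM of H3K27me3 in any library, and were not called above IgG either. Foxn2 and Foxp1 had 7.11 ± 1.90 and 7.79 ± 1.16 CPM of H3K4me3 beside 2.97 ± 1.41 and 4.65 ± 1.45 CPM of H3K27me3. At the gene-record start, the 3 broadly expressed genes with the least H3K4me3 were Foxj3 (0.875 CPM), Foxn3 (2.24 CPM), and Foxp4 (3.38 CPM).

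Foxp4, which acts in lung and gut epithelium among other tissues, had 38.4 and 29.5 CPM of H3K27me3 in KO and 36.3 and 24.9 CPM in WT. Its mean of 32.3 CPM was close to that of the restricted gene Foxf1 (33.8 CPM). Foxj2, which is expressed in meiotic germ cells, had 21.5 and 11.2 CPM in KO and 20.1 and 24.9 CPM in WT. Foxo3, which holds primordial oocytes dormant, had 11.04 ± 4.25 CPM (SD, n = 4). Foxn3 had 11.6 and 5.62 CPM in KO and 9.68 and 0 CPM in WT, where the 0 comes from the smallest H3K27me3 library. Foxr1, a gene known mainly from the germ line, had 13.1 and 2.81 CPM of H3K27me3 in KO and 12.1 and 9.98 CPM in WT, with 1.99 ± 0.84 CPM of H3K4me3. Of the 5 members listed for roles in male germ cells, Foxj1 and Foxo1 were called for H3K4me3 over H3K27me3, Foxj2 and Foxr1 for the opposite, and Foxj3 was not tested at its gene-record start. Foxa3, which also acts in testis, was not among these 5 and was called neither way.

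Foxj3, a regulator of spermatogonia and meiosis, has a gene record that begins 2.66 kb before its principal transcript. At the gene-record start it held 8 H3K4me3 fragments in all. At the principal start H3K4me3 was 12.6 and 10.02 CPM in KO and 10.2 and 9.63 CPM in WT, with 0 H3K27me3, H3K9me3, and IgG fragments. For Foxp1 and Foxn3, whose principal starts lie 256 and 114 kb inside the gene, the principal start held 0 H3K4me3 fragments, and the marks above refer to the gene-record start. Foxn1, the thymus and hair follicle factor, held 3 H3K4me3 and 3 H3K27me3 fragments in all at its start. Over its gene body it held 233 H3K27me3 fragments, 1.15 and 0.533 CPM per kb in KO and 1.03 and 1.55 CPM per kb in WT, which was called above IgG (log2 difference 2.95 ± 0.65, SE, limma-voom adjusted p = 0.000768), and 30 H3K4me3 fragments.

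**Figure D2:**
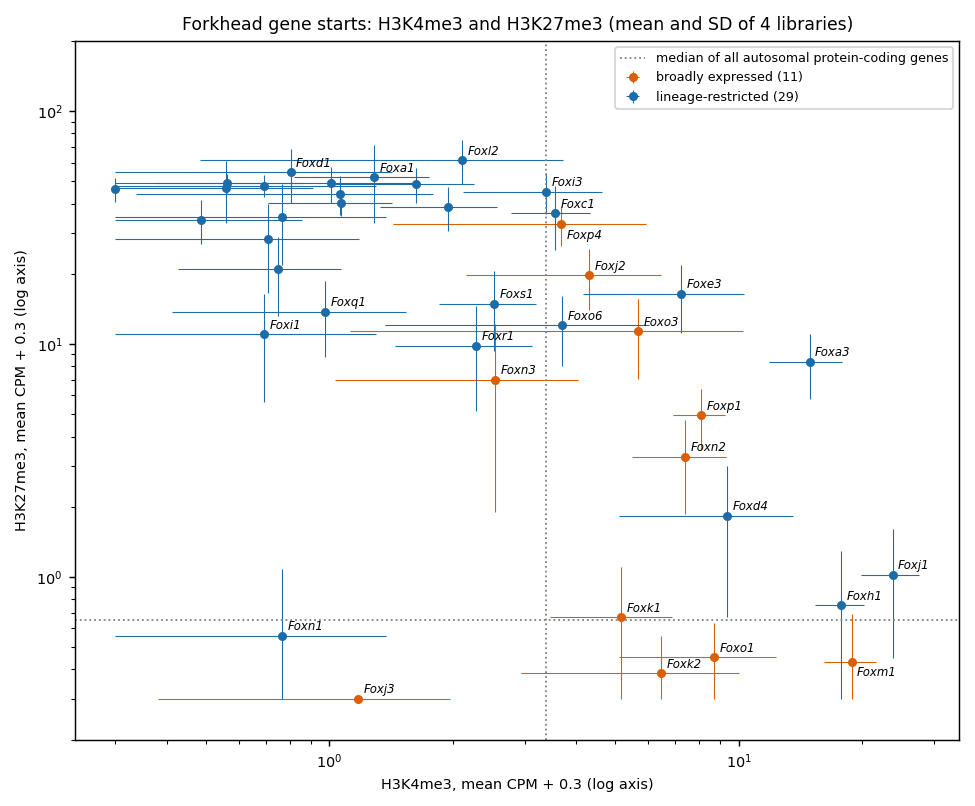
Mean H3K27me3 against mean H3K4me3 within 1 kb of each Forkhead gene start, in CPM with 0.3 added, on log axes, with bars of 1 SD over 4 libraries, cut at 0.3 where they would pass 0, and dotted lines at the medians of all autosomal genes. Restricted genes gather at high H3K27me3 and low H3K4me3, Foxj1, Foxh1, and Foxm1 lie at the opposite corner, and Foxa3 and Foxe3 lie between them.

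Set side by side in each library, the mean H3K4me3 of the 11 broadly expressed genes was 7.55 and 6.80 CPM in KO and 5.10 and 5.59 CPM in WT, and that of the 29 restricted genes was 4.04 and 3.54 CPM in KO and 2.64 and 3.30 CPM in WT. The broadly expressed genes were higher in all 4 libraries, by 0.89 ± 0.09 on the log2 scale (SD, n = 4 libraries), or 1.85-fold. The median over members gave a much larger log2 difference, 2.81. Foxj1, Foxh1, Foxa3, and Foxd4 each averaged 9.06 CPM or more, and no other restricted gene exceeded 6.93 CPM. H3K27me3 went the other way, with 8.74 and 5.75 CPM in KO and 7.92 and 5.90 CPM in WT for the broadly expressed genes, and 32.3 and 26.2 CPM in KO and 28.4 and 31.7 CPM in WT for the restricted ones. The log2 ratio of broadly expressed to restricted genes was -2.09 ± 0.27, or 4.24-fold more in the restricted genes, and -3.55 by the median over members. For IgG the log2 ratio was 0.62 ± 1.34 over the 3 libraries in which both classes held fragments. No test was made of these class means, since the genes of a class are not replicates. Summed over the family, the 40 windows held 0.599% to 0.799% of the H3K27me3 fragments found at all gene starts and 0.0843% to 0.101% of the H3K4me3 fragments, where an equal share for every gene would be 0.192%.

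Against IgG, H3K27me3 was higher at 29 of 38 tested members, against 24.9% of all tested windows. They were 25 restricted and 4 broadly expressed genes. H3K4me3 was higher than IgG at 7 of 38 members, Foxj1, Foxh1, Foxm1, Foxa3, Foxd4, Foxp1, and Foxn2, against 46.3% of all tested windows. The 46.3% is the share in the main fit only, while this second count moved with the settings. Without IgG KO replicate 1, IgG WT replicate 1, or IgG WT replicate 2 it was 4 each time, and it was 22 with an added constant in proportion to library depth, 15 with every deposited fragment, 4 with median-of-ratios scaling, and 1 with a window of 0.5 kb on each side. A 0 count stands at 1.85 to 3.13 CPM in IgG and at 0.0741 to 0.0998 CPM in H3K9me3 in the main fit, so only differences above IgG are given.

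Beyond the gene start, H3K27me3 extended over wider stretches at the restricted genes than at the broadly expressed ones. In 1-kb bins, the stretch around the start at 5 or more times an even spread over the genome (1.83 CPM per kb) was 27 kb at Foxl2, 24 kb at Foxc2, and 21 kb at Foxa1, Foxa2, Foxd3, Foxf1, and Foxf2. It reached 10 kb at 15 of 29 restricted genes and 1 of 11 broadly expressed genes (Foxp4, 12 kb), against 4.20% of all autosomal genes, and the median was 12 kb and 3 kb. The stretches of Foxc2 and Foxl1 overlap, so those of 10 kb or more at restricted genes number 14 separate ones. There was no such stretch at Foxj1, Foxh1, Foxd4, Foxn1, Foxm1, Foxo1, Foxk1, Foxk2, or Foxj3. The Foxa3 stretch of 13 kb ran downstream from the start. In the 0.5-kb bins of the profile, mean H3K27me3 of the restricted genes peaked at 8.07 CPM between 1 and 1.5 kb upstream and was 1.75 CPM near 10 kb upstream, while H3K4me3 of the broadly expressed genes stayed above 1 CPM only within 1.5 kb of the start.

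**Figure D3:**
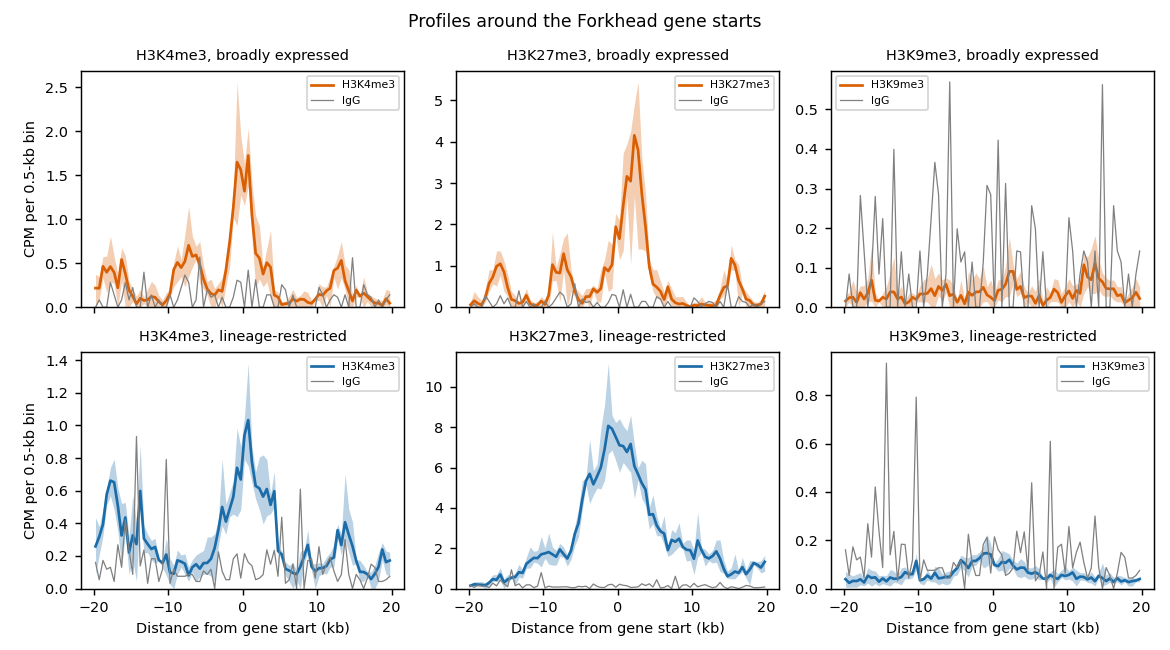
Mean CPM per 0.5-kb bin by distance from the gene start, oriented by gene direction, for 11 broadly expressed (top) and 29 restricted (bottom) Forkhead genes. Lines are means of 4 libraries, bands run from the lowest to the highest library, grey is IgG, and the vertical scales differ between panels. H3K27me3 is widest over the restricted genes, with a highest bin of 8.07 CPM, against 4.15 CPM for the broadly expressed genes.

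Several members lie in clusters. On chromosome 8, Foxf1, Foxc2, and Foxl1 start within 43.6 kb, and the stretches around Foxc2 and Foxl1 are in large part the same one, 24 kb in all, apart from the 21 kb around Foxf1. Foxf1, a factor of lung and gut mesenchyme, had 42.8 and 32.3 CPM in KO and 35.3 and 24.9 CPM in WT, beside the values of Foxc2 and Foxl1 given above. On chromosome 13, Foxq1 and Foxf2 start 69.7 kb apart and Foxc1 lies 181 kb beyond. H3K27me3 was 16.6 and 8.43 CPM in KO and 18.7 and 9.98 CPM in WT at Foxq1, and 49.9 and 52.0 CPM in KO and 36.0 and 54.9 CPM in WT at Foxf2. At Foxc1 it was 23.4 and 32.3 CPM in KO and 39.1 and 49.9 CPM in WT, so the genotypes overlapped at Foxq1 and Foxf2 and did not at Foxc1. Foxa2, Foxb2, Foxd3, and Foxl1 separated the other way, with KO higher. So did Foxj1, on 6 fragments in all, at 0.788 and 1.405 CPM in KO and 0.692 and 0 CPM in WT. Where genotype has no effect, a separation in either direction has a probability of 0.333. The share of all windows that separated was not counted. None of these genes was called between KO and WT. On chromosome 4, Foxd2 and Foxe3 start 17.1 kb apart. Foxd2 had 48.3 and 45.0 CPM of H3K27me3 in KO and 31.8 and 49.9 CPM in WT, with 0.763 CPM of H3K4me3 on average against 6.93 CPM at Foxe3. Values of neighbors in a cluster are not independent.

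Over the gene body, from start to end of the gene record, H3K27me3 exceeded IgG at 27 of 40 members (20.8% of 19876 tested gene bodies) and H3K4me3 at 6 (32% of them), which were Foxj1, Foxm1, Foxc1, Foxh1, Foxd4, and Foxk1. Foxk1 held 0.326 CPM of H3K4me3 per kb on average, below the 0.367 CPM per kb of an even spread over the genome. Foxe3 (4.11 CPM per kb), Foxs1 (2.73), Foxq1 (2.48), and Foxa3 (1.57) held more and were not called. The count for H3K4me3 was 7 with the sibling pair as a block, 11 with every deposited fragment, and 16 with the proportional constant, while the 32% is the share in the main fit only. Foxc1, a factor of eye and heart development, differed between the regions. Its body carried 4.44 and 4.74 CPM of H3K4me3 per kb in KO and 6.54 and 5.26 CPM per kb in WT, against 1.48 and 3.61 CPM per kb of H3K27me3 in KO and 3.14 and 3.41 CPM per kb in WT. Within 1 kb of its start the order was reversed, with 3.26 ± 0.78 CPM of H3K4me3 and 36.2 ± 11.2 CPM of H3K27me3, and its H3K27me3 stretch ran 10 kb upstream and 2 kb downstream. In the longest genes, Foxp1 (597 kb) and Foxp2 (541 kb), both marks stayed at or below 0.292 CPM per kb over the body, against 0.367 CPM per kb for an even spread.

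H3K9me3 averaged at most 1.26 CPM at the members and was not called above IgG at any of 38 (0.162% of all tested windows), nor over any of 40 gene bodies (1.83% of all). At the start the main fit could not decide whether H3K9me3 exceeds IgG. There a window with 0 IgG fragments stands at 1.85 to 3.13 CPM, above the H3K9me3 mean of every member. With the constant in proportion to depth, 6 members were called at the start, and with median-of-ratios scaling 7 were. The latter scaling also made most H3K9me3 calls over all windows higher calls. Shares of all tested windows are not given for these settings, so the 6 and 7 are not read as a result about the members. The highest was Foxf2, with 0.741 and 1.72 CPM in KO and 0.976 and 1.60 CPM in WT, where an even spread over the genome gives 0.734 CPM per window. Foxl1 had 1.04 and 0.572 CPM in KO and 1.79 and 0.998 CPM in WT, and Foxl2 had 1.04 and 1.72 CPM in KO and 0.325 and 0.998 CPM in WT. Foxe1 and Foxa2 followed at 0.803 ± 0.18 and 0.800 ± 0.41 CPM (SD, n = 4), with a range over libraries of 0.599 to 1.04 CPM and 0.325 to 1.34 CPM. Ranked among all autosomal genes, 10 of 29 restricted and 0 of 11 broadly expressed members were in the highest 10% for H3K9me3, which begins at 0.585 CPM, and 28 of 40 members were above the median of 0.140 CPM. The restricted genes had 4.53-fold more H3K9me3 in CPM than the broadly expressed ones (log2 ratio -2.18 ± 0.67), on 320 and 29 fragments in all. The order of the members followed H3K27me3, with a Spearman correlation of 0.85 over 40 genes and 0.64 to 0.88 within the 4 pairs of libraries from the same animal, against 0.37 over all 20807 genes. Each pair of libraries comes from 1 animal, and genes are not independent replicates. Whether H3K9me3 itself or another source gave these few fragments was not tested.

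Most Forkhead starts are rich in CpG. The ratio of observed to expected CpGs within 1 kb of the start exceeded 0.6 at 31 of 40 members (77.5%), against 35.0% of all autosomal genes. It did so at 7 of 8 members with H3K4me3 above H3K27me3 and 22 of 28 with the opposite call. The median ratios of these sets were 0.786 and 0.764. Foxj3 at its gene-record start (0.171) and Foxn1 (0.201) were the lowest of the family and had few fragments of either mark in this window. Foxh1 was the only H3K4me3 member under 0.6, at 0.310, and Foxq1, Foxi1, Foxs1, Foxi2, Foxr1, and Foxn4 were the H3K27me3 members under it. Among CpG-rich starts, 16 of 31 members (51.6%) were in the highest 10% for H3K27me3, against 11.5% of all 7281 CpG-rich genes. Their median H3K4me3 was 3.09 CPM, against 12.3 CPM for all of these genes.

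**Figure D4:**
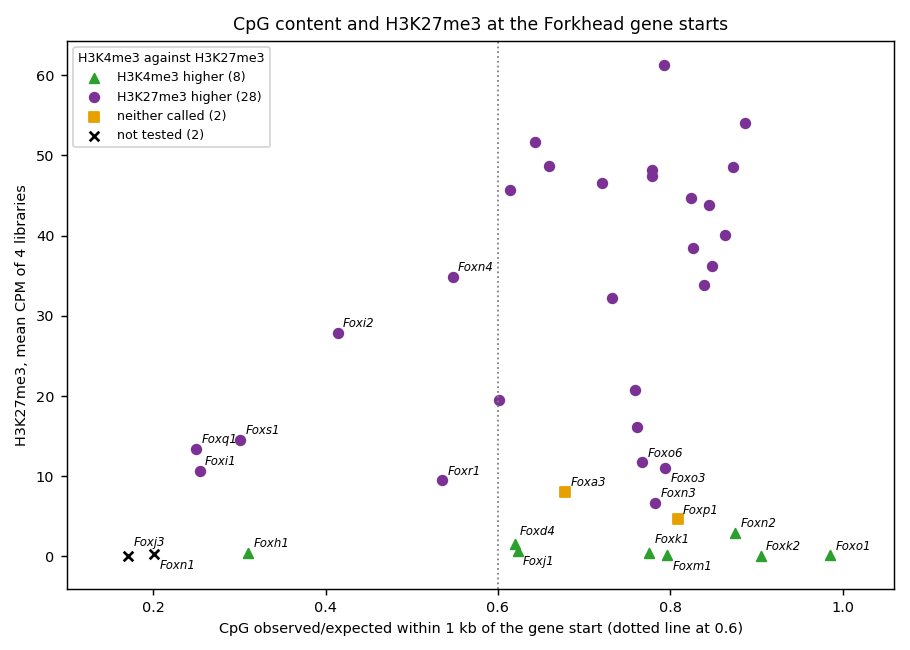
H3K27me3 (mean CPM of 4 libraries) against the observed to expected CpG ratio within 1 kb of the start of the 40 Forkhead genes, with symbols for the call of H3K4me3 against H3K27me3. Members called for H3K4me3 and for H3K27me3 share the range above 0.6 (dotted line), and Foxn1 and Foxj3 lie at the low end of both axes.

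In the RefSeq promoters, which run from 250 bases before to 50 after the start and were found for 26 members, short motifs were searched on both strands. The GC box GGGCGG was in 20 of 26 member promoters (76.9%) and in 35.9% of all 27025 promoters. CCAAT was in 13 (50%) against 37.9%. The forkhead motif TGTTTAC was in 1 member promoter, that of Foxa1, against 3.55% of all, and the cAMP response element TGACGTCA was in 1, that of Foxd3, against 1.88%. None of these motifs contains another.

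Genes tied to Forkhead factors were also counted. Of 17 regulators of FoxO factors in the PI3K-Akt pathway, which exclude Foxo proteins from the nucleus, 11 had H3K4me3 above H3K27me3 (54.8% of all tested windows) and 5 had the opposite (28.9% of all), with a median log2 difference of 2.79 against 2.49 over all windows. Pdpk1, a kinase upstream of Akt, had 34.0 CPM of H3K4me3 and 0 CPM of H3K27me3, whereas the insulin receptor gene Insr had 0.392 and 39.8 CPM. Of 17 motile cilium genes listed for their ties to Foxj1, 15 were in the annotation and 13 had enough fragments to be tested. Among these 13, 10 had H3K4me3 above H3K27me3 and 2 the opposite, with a median log2 difference of 4.84. Tekt1 and Hydin had 24.1 and 20.4 CPM of H3K4me3, and Rfx2 and Rfx3, which share targets with Foxj1, had 19.7 and 20.1 CPM. Dnah9 had 0 CPM of H3K4me3 and 24.1 CPM of H3K27me3, and Mcidas had 2.78 and 7.42 CPM. Against IgG, H3K4me3 was higher at 10 of 17 and 9 of 13 genes of these lists (46.3% of all tested windows) and H3K27me3 at 5 of 17 and 2 of 13 (24.9% of all).

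To ask whether loss of H2A.B altered these marks at the family, KO was compared with WT for each antibody. No member was called at the start for H3K4me3 (22 tested), H3K27me3 (32), or H3K9me3 (16), and none passed the filter for IgG. The same tests called 0% of all windows, and at an unadjusted p under 0.05 the limma-voom fit had 0 members for each mark, against 416 of 11949, 154 of 6492, and 51 of 3208 windows. Over the gene body the tests had 31, 37, 30, and 4 members for H3K4me3, H3K27me3, H3K9me3, and IgG, with 0 called (0% of all) and 0 under an unadjusted p of 0.05. Every alternative fit that was run also gave 0 members.

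For H3K4me3 the estimates leaned toward KO, with 18 of 22 members higher and a median log2 difference of 0.25, but 67.9% of all tested windows were higher too, with a median of 0.18. With median-of-ratios scaling 13 of 22 members were higher (median 0.07), beside 47.8% of all tested windows (median -0.02). Foxj1 was 0.35 higher in KO (95% interval -0.33 to 1.03) and Foxm1 0.35 higher (-0.35 to 1.05), each with both KO libraries above both WT libraries and an adjusted p of 0.998. Foxn3 had the smallest unadjusted p among the members (0.0599), with 0.742 and 1.18 CPM in KO and 3.82 and 3.21 CPM in WT, a log2 difference of -1.57 (-3.20 to 0.07). For 3 of 22 members the interval lay within a doubling in either direction (log2 of 1), and at the others it reached past that size. Summed over the family, H3K4me3 was 200.3 and 178 CPM in KO and 133 and 157 CPM in WT. All gene starts together held 19.8% and 17.6% of KO fragments and 15.7% and 16.3% of WT fragments, so the libraries also differed in the share of H3K4me3 fragments at any gene start, and its part in the family's sum was not tested.

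For H3K27me3, 16 members were higher and 16 lower in KO, with a median log2 difference of 0.02 against -0.07 over all tested windows, of which 41.9% were higher. With median-of-ratios scaling 21 of 32 members and 48.5% of windows were higher. The range was -0.79 at Foxi1 to 0.93 at Foxn3, and no member's interval lay within a log2 of 1. The family sum was 1034 and 822 CPM in KO and 911 and 983 CPM in WT, which overlap. For H3K9me3, 9 of 16 members were higher and 7 lower, beside 54.7% of all tested windows higher. The sums were 14.2 and 18.3 CPM in KO and 14.8 and 13.2 CPM in WT. With median-of-ratios scaling 8 of 16 members and 48.4% of windows were higher for H3K9me3.

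**Figure D5:**
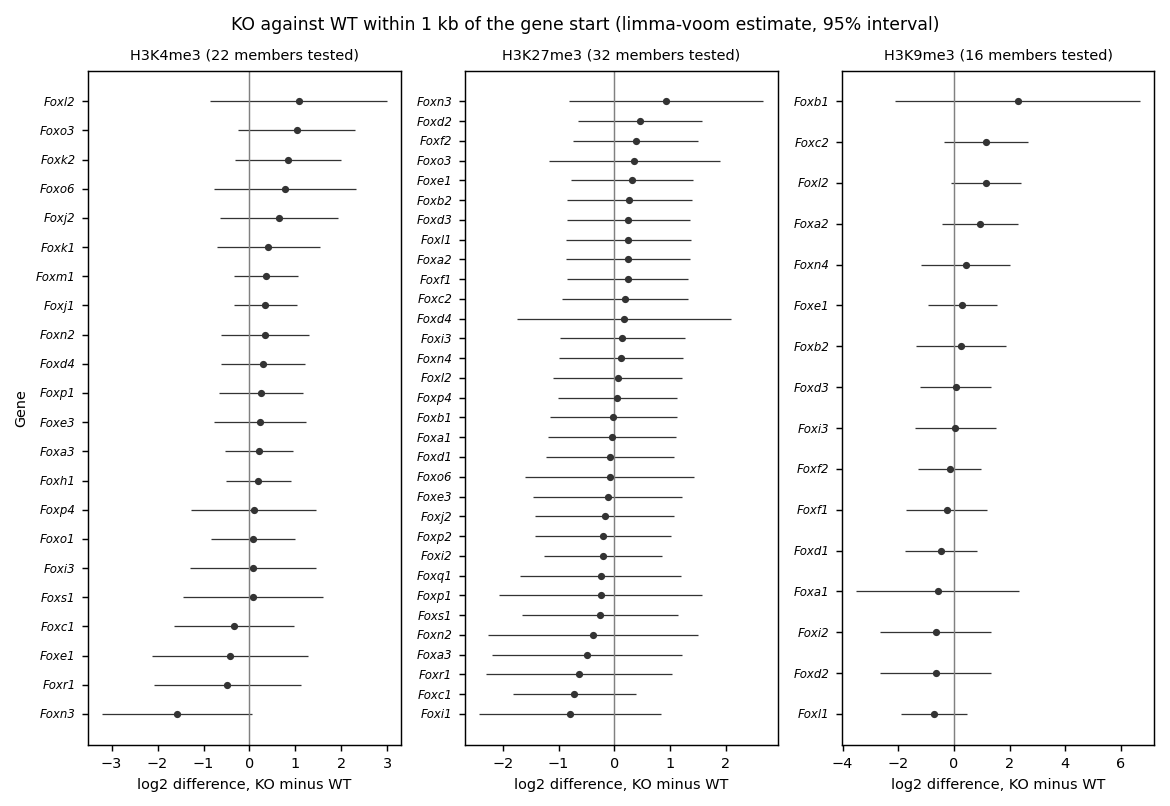
Log2 difference of KO minus WT within 1 kb of the gene start for the members tested in each mark, with 95% intervals from limma-voom on 2 KO and 2 WT libraries. All intervals cross 0 and most are wider than a log2 of 1 on each side, and for H3K4me3 18 of 22 points lie above 0 (13 with median-of-ratios scaling, not drawn).

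Fragment lengths at the member starts also differed between the genotypes. Fragments of at most 120 bp, shorter than the DNA of a nucleosome, numbered 0.602 and 0.503 per fragment of at least 150 bp in the KO libraries of H3K4me3 and 0.282 and 0.215 in the WT libraries. KO exceeded WT by 1.09 on the log2 scale in the first sibling pair and by 1.22 in the second. Their mean, 1.16, compares with a spread between replicates of 0.24 (pooled SD) and with 0.80 over all gene starts. For H3K27me3 the ratios were 0.169 and 0.258 in KO and 0.105 and 0.129 in WT, with pair differences of 0.69 and 1.002 and a mean of 0.85 (pooled SD 0.34) against 0.75 over all gene starts. For H3K9me3, with 5 to 17 small fragments per library, the differences were 0.40 and 0.42 in the sibling pairs, and their mean of 0.41 compares with a pooled SD of 1.063 and with 0.13 over all gene starts. At the members the genotypes did not overlap for H3K4me3 and H3K27me3 and overlapped for H3K9me3. Over all gene starts the genotypes did not overlap for H3K4me3 either, at 0.669 and 0.623 in KO and 0.423 and 0.326 in WT. H3K9me3 overlapped there too, at 0.230 and 0.275 in KO and 0.203 and 0.258 in WT. So did H3K27me3, at 0.165 and 0.304 in KO and 0.104 and 0.170 in WT. Within the sibling pairs, H3K27me3 was still higher in KO over all gene starts, by 0.67 and 0.84 on the log2 scale. IgG held too few fragments at the member starts, but over the whole IgG libraries the same ratio was 1.52 and 1.31 in KO and 1.08 and 0.939 in WT, so the control antibody showed the same direction. Its part in the values at the members was not tested. The ratios are sums over chosen members and are given with no test.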

How the data were processed

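The authors aligned paired ends to mm10 with Bowtie2 (version 2.3.4.3 per the submitters' processing notes) and deposited 1 list of mapped fragments for each library, with coordinates and lengths, unscaled and unpooled. These values are positions and lengths. Removal of PCR duplicates is part of the stated methods, yet 33.6% to 83.4% of autosomal, X, and Y fragments in a library repeat coordinates already listed in it, so each position was counted once. Fragments were assigned by midpoint to windows of 1 kb on each side of the gene start and to gene bodies of 20807 genes. Windows with at least 10 fragments in a fit were tested with limma-voom (limma 3.58.1, R 4.3.3), scaled by distinct fragments per library, with Benjamini-Hochberg adjustment over all windows. Targets were contrasted over 16 libraries, and KO with WT within each target. Scripts were tested on simulated data. Levels, domains, CpG ratios, and figures were made in Python 3.11.15 with NumPy 2.4.6, pandas 2.3.3, matplotlib 3.10.9, and samtools 1.23.1. Intervals and limits cover counting error and the spread between these libraries only.

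The members, classes, and lists (markers of spermatids, spermatogonia, Sertoli cells, Leydig cells, and macrophages, the PI3K-Akt regulators, and the motile cilium genes) were chosen with earlier results of these data known. Genes were named as follows: the 5 highest members per mark, the 3 broadly expressed genes with the least and the 3 restricted genes with the most H3K4me3, members called between KO and WT, members within 200 kb of another, and those listed for roles in male germ cells. Other genes were named after their values were seen. Replicate numbers were taken as pairs, since the methods name 2 sibling pairs and the labels share a date code per number. Deviations from the genotype means correlated between same-numbered KO and WT libraries at 0.234 for H3K4me3, 0.298 for H3K27me3, 0.171 for H3K9me3, and 0.387 for IgG.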

Additional observations from a re-analysis of the deposited data

How the results depend on the processing

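The 8 comparisons of KO with WT gave 0 called members under all 112 alternative settings. Their main fits called 0% of all windows, and for IgG they had 0 members to test at the start and 4 over the body. These 112 values therefore say little about stability. Over all results 309 alternative values, the 112 among them, stayed within 1.5 times the count or within the replicate spread and 18 did not. At the gene start, the number of members with H3K4me3 above IgG (7) was 15 with every deposited fragment, 22 with an added constant in proportion to the library (chosen after seeing the data), 4 with median-of-ratios scaling, and 1 with a window of 0.5 kb, and the cause was not tested. Leaving out each library gave 4 to 7. H3K9me3 above IgG (0) became 6 with the proportional constant and 7 with median-of-ratios scaling. The members with H3K4me3 above H3K27me3 (8) were 5 with median-of-ratios scaling and 4 after thinning, which leaves fewer fragments and 30 tested members. Over the gene body, H3K4me3 above IgG (6) was 11 with every deposited fragment and 16 with the proportional constant, and H3K9me3 above IgG (0) was 4 with that constant and 3 with median-of-ratios scaling. Shares of all tested windows are not given for these alternative settings. The counts show that the calls moved, and not how the family stands to all windows under those settings. The log2 ratio of broadly expressed to restricted genes (0.89 for H3K4me3) was 0.74 with a window of 2 kb and 2.81 as a median over members, and for H3K27me3 (-2.09) the median gave -3.55.

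With the replicate block, the sibling pair, the members above IgG at the gene start were 7 in H3K4me3, 29 in H3K27me3, and 0 in H3K9me3, with 8 and 28 in the contrast of H3K4me3 with H3K27me3, and 0 for each comparison of KO with WT, so no call count changed there. Over the body H3K4me3 gained a member (7 in place of 6), while H3K27me3 stayed at 27 and H3K9me3 at 0. Over all windows the balance of the comparisons with IgG turned with the setting. This balance is the share of higher calls among all calls, higher and lower, and not among all tested windows. The lower calls depend on the added constant and are not read as results. Median-of-ratios scaling moved the share of higher calls at the start from 64.7% to 42.9% for H3K4me3 and from 0.171% to 98.7% for H3K9me3, where the median log2 difference went from -3.92 to 0.20, and over the body from 69.8% to 48.2% for H3K4me3, from 39.8% to 62.4% for H3K27me3, and from 2.38% to 73.1% for H3K9me3. For H3K27me3 at the start the share of 30.8% became 72.5% with every deposited fragment and 92.4% with the proportional constant, where the median went from -1.93 to 0.82, while its called members numbered 29 and 31 (29 as reported). That share was also 95.3% with only the libraries of both targets, 96.9% after thinning, 66.6% without H3K27me3 WT replicate 1, and 53.8% without H3K27me3 KO replicate 1, where the called members numbered 30, 20, 26, and 23. IgG held too few fragments for a ratio of small to large fragments, and the IgG median over members was 0, so neither was computed. The smallest library, H3K27me3 WT replicate 2 with 200457 fragments, and the IgG libraries limit what the members' windows can show.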
